A study of Mus musculus with 6 samples.

Results

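The genes described here build and use the meiotic chromosome: they cut it, exchange strands, place crossovers, form its axis and synaptonemal complex, and tie its ends to the nuclear envelope. They were taken from a list of 39 names by exact match to the gene symbol in the platform annotation. The array held 49 probe sets for 37 of them, of 45101 probe sets and 18193 named genes in all. Hei10 is another name of Ccnb1ip1, which is among the 37, and Shoc1 was not matched by symbol. RNA came from whole testis of mice aged 5 weeks and was hybridised to Affymetrix arrays, 3 from Phf13 knockout mice and 3 from wild-type mice. The labels give no strain and no description of the knockout allele. They do not say whether the arrays stand for separate animals, so the p-values cover only the spread among these samples, part or all of which may be technical.

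Phf13 encodes a PHD finger protein that binds histone H3 trimethylated at lysine 4, the mark that PRDM9 writes at recombination sites. In prophase of meiosis the axis of cohesin and HORMA-domain proteins forms along each chromosome, SPO11 cuts the DNA, and DMC1 carries broken ends into the homologue. The synaptonemal complex then holds homologues together while a few of the breaks become crossovers. Telomeres, tethered to the inner nuclear membrane, lead chromosome movements so that partners can meet. The comparison asks how much of the RNA for this machinery differed between Phf13 knockout and wild-type testis.

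Values are log2 levels per probe set as deposited, and a difference is knockout minus wild type on that scale. Every adjusted p below is from limma with Benjamini-Hochberg adjustment over all 45037 probe sets tested. Probe sets differ in how brightly they report, so levels are not ordered between genes. The Phf13 probe set stood at 6.71, 6.60 and 6.55 on knockout arrays, against 9.55, 9.47 and 9.56 on wild-type arrays (limma adjusted p = 7.7e-06). The target gene therefore went with the labels on all 6 arrays. The position of its probes within the gene was not analysed here.

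Control probe sets for 18S ribosomal RNA split the arrays into 2 sets, each with both genotypes. In set 1 the 18S mean was 12.03 on knockout 1, against 12.34 on wild type 1 and 12.67 on wild type 2. In set 2 it was 9.87 on knockout 2 and 9.69 on knockout 3, against 10.71 on wild type 3. The actin 3' minus 5' difference, a sign of RNA or labelling quality, ran from 0.75 to 0.89 in set 1 and from 0.56 to 0.59 in set 2. For 20 of the 37 genes the gap between the sets was larger in size than the gap between genotypes. The genotypes were unequally spread over the sets, so each gap contains part of the other. Differences inside each set are therefore given beside the leading results.

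Upstream sequences are shown for axis and synaptonemal complex genes. Letters known from the silencing of germline genes outside the germline recur there and before other genes of the 37. That silencing complex contains E2F6, which binds GCGGGA-like sites, and MGA with MAX, which bind the E-box CACGTG. Of the 37 genes, 31 had a promoter window in RefSeq (GRCm38.p6), and the 250 bases before the start were searched on both strands, with the first listed window taken where there were several. GCGGGA was in 16 of the 31 windows (51.6%), against 25.1% of the windows of 14369 genes on the array. CACGTG was in 7 (22.6%), against 7.57%. Neither was confined to axis and synaptonemal complex genes. Most genes with GCGGGA had other roles: Brip1, Ccnb1ip1, Dmc1, Meioc, Msh5, Prdm9, Psmc3ip, Spdya, Sun1 and Terb1. Among axis and synaptonemal complex genes it lay before Hormad1, Sycp3, Smc1b, Rec8, Syce2 and Tex12. CACGTG also lay before Rec114 and Cntd1. CAGTTG, read by MYB proteins such as the meiotic factor A-MYB, was in 2 (6.45%), against 9.56%. The median G and C content was 58.8% in the 31 windows and 57.6% in the 14369. CACGTG reads the same on both strands, and in 0 of the 31 windows did matches of different motifs share a base. A match describes letters and is not evidence of binding.

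Hormad1, Sycp3 and Tex12 held both GCGGGA and CACGTG, as did 2.32% of the 14369 windows. Smc1b and Hormad2 are shown beside them because they had the smallest p of the axis genes. Each line gives the 150 bases before the start, 5' to 3' along the gene, with matches to the 3 motifs in capitals. Hormad1 lies at chr3:95559527-95559676 on the plus strand, Sycp3 at chr10:88459437-88459586 on the plus strand, Tex12 at chr9:50561269-50561418 on the minus strand, Smc1b at chr15:85131958-85132107 on the minus strand and Hormad2 at chr11:4441083-4441232 on the minus strand (GRCm38.p6).
Hormad1: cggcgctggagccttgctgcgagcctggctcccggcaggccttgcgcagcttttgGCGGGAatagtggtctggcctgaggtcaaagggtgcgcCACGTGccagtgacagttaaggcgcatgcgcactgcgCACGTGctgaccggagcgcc
Sycp3: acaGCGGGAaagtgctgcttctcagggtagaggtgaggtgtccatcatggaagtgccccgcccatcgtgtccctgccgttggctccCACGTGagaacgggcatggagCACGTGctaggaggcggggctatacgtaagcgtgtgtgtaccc
Tex12: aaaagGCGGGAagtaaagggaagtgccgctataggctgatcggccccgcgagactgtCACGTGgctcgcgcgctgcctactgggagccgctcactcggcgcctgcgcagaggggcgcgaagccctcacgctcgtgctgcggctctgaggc
Smc1b: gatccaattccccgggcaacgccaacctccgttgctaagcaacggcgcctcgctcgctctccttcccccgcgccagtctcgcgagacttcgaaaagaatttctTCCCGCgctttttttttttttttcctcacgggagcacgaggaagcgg
Hormad2: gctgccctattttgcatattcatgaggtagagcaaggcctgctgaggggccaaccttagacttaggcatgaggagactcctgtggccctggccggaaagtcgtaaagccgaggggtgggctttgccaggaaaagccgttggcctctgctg
Sycp3 and Hormad1 each carry 2 E-boxes and 1 GCGGGA match in this stretch, and Tex12 carries 1 of each. Smc1b carries 1 GCGGGA match, written there as its reverse complement, and no E-box. None of the letters searched is in the Hormad2 stretch, which says nothing about the factors themselves.

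No gene of the meiotic machinery passed the threshold in either direction: limma called 0 of 37 higher and 0 of 37 lower at an adjusted p under 0.05. Over 1 probe set for each of 18193 genes, 0.0715% were called higher and 0.066% lower. Of the 37, 5 were lower in knockout with an unadjusted p under 0.05 (background 8.72%) and 0 were higher (background 8.58%). The 5 were Majin, Spo11, Hormad2, Smc1b and Terb2. Quantile normalization gave 3 lower and 2 higher, Dmc1 and Tex11. The count of lower genes was 2 without wild type 1 and 3 without any 1 of wild type 2, wild type 3, knockout 2 and knockout 3, and that of higher genes was 4 without knockout 1 and 1 without wild type 3. With array weights, limma called Majin and Stag3 lower (adjusted p = 0.0429 and 0.0444), in a fit that called 1654 probe sets higher and 1532 lower.

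The groups did not overlap for 6 genes, all lower in knockout (background 13.5% lower and 9.92% higher): these 5 and Sycp2. Differences ran from -0.36 to 0.29 with a median of -0.06 (-0.005 without knockout 1), against a median of 0.01 over all 18193 genes, and 23 were below 0 (background 47.9%), 13 above (background 51.3%) and 1 at 0. In folds, no gene of the 37 differed by more than 1.28. Among the 37, 27 lay above the upper quartile of probe sets on the array and 2, Mei4 and Prdm9, below the median. Of all 18193 genes, each likewise at its brightest probe set, 5598 lay below that median. The matching count above the upper quartile is not given here.

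**Figure D1:**
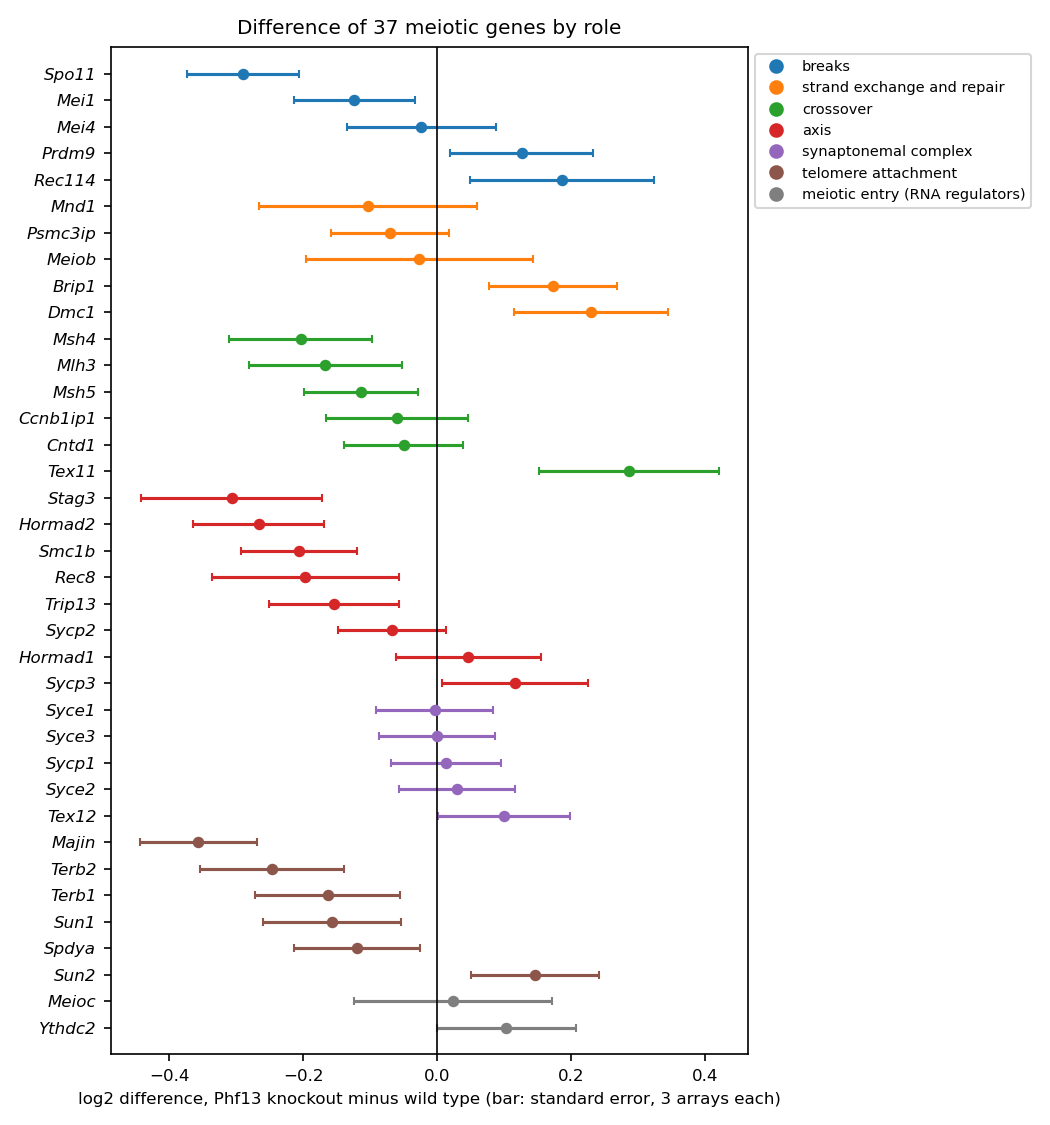
Log2 difference (Phf13 knockout minus wild type, x axis) of each of the 37 genes, grouped by role down the page, with points for the fitted difference and bars for its standard error (3 arrays per genotype). Axis and telomere attachment genes lie mostly left of 0, from -0.36 for Majin, and the 5 synaptonemal complex genes lie between -0.003 and 0.10.

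These are levels in mixed tissue, where fewer cells of a type and less RNA per cell cannot be told apart. Markers of pachytene and later spermatocytes, in which much of this machinery acts, had a median difference of -0.245 with 9 of 10 genes below 0. Their mean level ran from 10.78 to 10.87 on knockout arrays, against 10.98 to 11.07 on wild-type arrays. Sertoli cell markers, of the somatic cells that enclose germ cells, had a median of 0.42 with 12 of 12 above 0, and mean levels from 8.72 to 8.88 on knockout arrays, against 8.41 to 8.43 on wild-type arrays. Markers of myoid cells and stroma had a median of 0.49 with 6 of 7 above 0, at 7.80 to 8.17 on knockout arrays, against 7.37 to 7.73 on wild-type arrays. Inside sets 1 and 2 the medians were -0.16 and -0.20 for spermatocyte, 0.33 and 0.41 for Sertoli and 0.32 and 0.785 for myoid and stroma markers. In none of these lists did limma call a gene at an adjusted p under 0.05. Their part in the differences of the meiotic genes was not tested.

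Spo11, the enzyme that makes the breaks, had the smallest p of the break genes. It stood at 9.74, 9.79 and 9.66 on knockout arrays, against 10, 10.05 and 10.01 on wild-type arrays. Every knockout array lay below every wild-type array. The means were 9.73 ± 0.07 in knockout and 10.02 ± 0.03 in wild type (SD, n = 3 each). The difference was -0.29 (SE 0.08, 95% interval -0.48 to -0.10, limma unadjusted p = 0.00801, limma adjusted p = 0.220). Inside each set it was -0.285, and the fit with the sets as a block gave a limma adjusted p of 0.218.

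The partners of SPO11 gave no common direction. Rec114, a break-promoting factor, stood at 6.10, 6.04 and 6.43 on knockout arrays, against 5.95, 5.85 and 6.21 on wild-type arrays, with overlap (difference 0.19, limma adjusted p = 0.551). Its dimmer probe set read 5.06, 5.16 and 5.17 on knockout arrays, against 4.78, 4.74 and 4.95 on wild-type arrays. There the groups did not overlap, with a difference of 0.31 (SE 0.09, limma adjusted p = 0.232). Its identifier ends in _x_at, which marks probes shared in part with other transcripts. Mei1, also needed for breaks, stood at 6.04, 5.86 and 5.95 on knockout arrays, against 6.14, 6.01 and 6.07 on wild-type arrays, with 1 knockout array inside the wild-type range (difference -0.12, limma adjusted p = 0.552). Mei4, which works with REC114, differed by -0.02. Prdm9, the histone methyltransferase that marks where breaks fall, differed by 0.13 (95% interval -0.12 to 0.37), with -0.045 inside set 1 and 0.18 inside set 2. Mei4 and Prdm9 were dim, at means of 3.59 and 4.92 in knockout and of 3.62 and 4.80 in wild type, so a change in either could be missed.

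**Figure D2:**
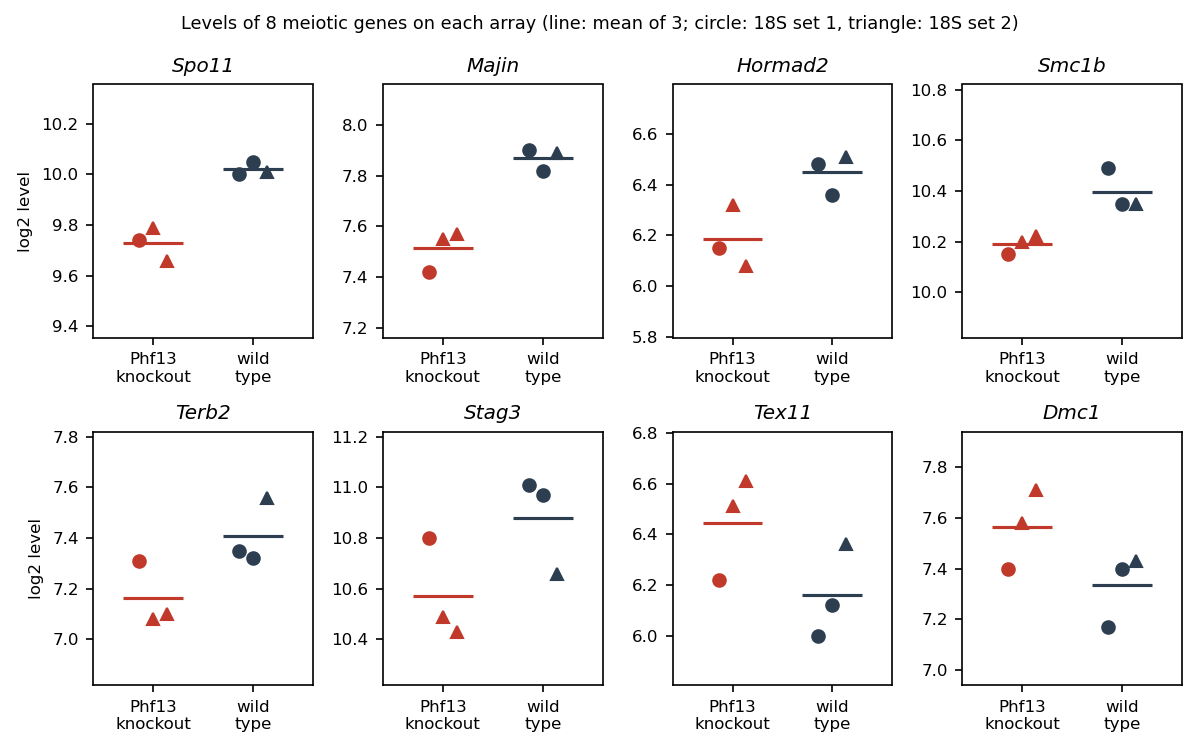
Log2 level (y axis, each panel spanning 1 unit) of 8 genes on the 3 Phf13 knockout arrays (left) and the 3 wild-type arrays (right) of each panel, with circles for 18S set 1, triangles for 18S set 2 and lines for the mean of 3. For Spo11, Majin, Hormad2, Smc1b and Terb2 all knockout points lie below all wild-type points, whereas the groups overlap for Stag3, Tex11 and Dmc1.

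Among strand exchange genes the recombinase Dmc1 had the smallest p, on the higher side. It stood at 7.40, 7.58 and 7.71 on knockout arrays, against 7.17, 7.40 and 7.43 on wild-type arrays. The groups overlapped, since knockout 1 lay at or below the upper 2 wild-type arrays. The difference was 0.23 (SE 0.12, limma adjusted p = 0.387), and the other Dmc1 probe set differed by 0.27 (limma adjusted p = 0.402). Dmc1 was also higher in set 2 than in set 1, by 0.25 over genotypes, and differed between genotypes by 0.115 inside set 1 and by 0.215 inside set 2.

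The cofactors of DMC1 did not share its sign. Psmc3ip, which with MND1 helps DMC1 invade the homologue, stood at 10.95, 11.02 and 11.05 on knockout arrays, against 11.08, 10.99 and 11.16 on wild-type arrays (difference -0.07, limma adjusted p = 0.747). Both of its probe sets differed by -0.07. Mnd1 differed by -0.10, and Meiob, which coats single-stranded DNA, by -0.03 with a value of -0.34 inside set 1 and 0.005 inside set 2. Meiob was 0.37 higher in set 2, a gap larger than its gap between genotypes. Brip1, a repair helicase, stood at 5.42, 5.61 and 5.66 on knockout arrays, against 5.39, 5.43 and 5.35 on wild-type arrays. Only knockout 1 overlapped wild type (difference 0.17, limma adjusted p = 0.426), and inside the sets the differences were 0.01 and 0.285.

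Of 6 crossover genes, 5 had a negative difference and X-linked Tex11 a positive one. Tex11, related to yeast Zip4, stood at 6.22, 6.51 and 6.61 on knockout arrays, against 6, 6.12 and 6.36 on wild-type arrays. Knockout 1 lay below wild type 3, the highest wild-type array. The difference was 0.29 (SE 0.13, 95% interval -0.02 to 0.59, limma adjusted p = 0.360). Its gap between the sets was larger, with set 2 higher by 0.38, while inside the sets knockout was higher by 0.16 and 0.20. Among the 37 this was the largest positive difference.

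Msh4, whose product clamps recombination intermediates together with MSH5, stood at 7.72, 7.66 and 7.92 on knockout arrays, against 8, 7.84 and 8.07 on wild-type arrays. Knockout 3 lay above wild type 2, and the difference was -0.20 (SE 0.11, limma adjusted p = 0.408). Mlh3, part of the nuclease that resolves crossovers, stood at 7.66, 7.90 and 7.71 on knockout arrays, against 7.82, 8.11 and 7.84 on wild-type arrays (difference -0.17, limma adjusted p = 0.523). Its groups overlapped. Msh5 differed by -0.11 on its brighter probe set and by 0.33 on its dimmer one, where knockout 2 alone read 6.03 and the other 5 arrays read between 5.10 and 5.34. Ccnb1ip1, the ubiquitin ligase HEI10, differed by -0.06.

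Cntd1, a cyclin-like factor of crossover maturation, gave different readings on its 3 probe sets. The brightest, also an _x_at probe set, stood at 11.10, 11.29 and 11.18 on knockout arrays, against 11.25, 11.21 and 11.26 on wild-type arrays (difference -0.05, limma adjusted p = 0.826). The next stood at 9.48, 9.44 and 9.37 on knockout arrays, against 9.68, 9.71 and 9.56 on wild-type arrays, with no overlap (difference -0.22, limma adjusted p = 0.300). The dimmest stood at 7.60, 7.72 and 7.41 on knockout arrays, against 7.85, 8.09 and 7.83 on wild-type arrays, again with no overlap (difference -0.35, limma adjusted p = 0.253). Which of them best reports Cntd1 cannot be told from the values.

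The axis group had a median difference of -0.175, with 6 of 8 genes below 0. The mean level of its 8 genes ran from 9.52 to 9.56 on knockout arrays, against 9.65 to 9.70 on wild-type arrays. The median was -0.155 inside set 1 and -0.10 inside set 2, -0.09 with the run of title codes (arrays whose sample titles carry consecutive codes) as a block and -0.09 without wild type 1. The spermatocyte and Sertoli markers had medians of -0.245 and 0.42, and their part was not tested. Hormad2, a HORMA-domain protein of unsynapsed axes, stood at 6.15, 6.32 and 6.08 on knockout arrays, against 6.48, 6.36 and 6.51 on wild-type arrays. No knockout array reached the wild-type range. The difference was -0.27 (SE 0.10, 95% interval -0.49 to -0.04, limma adjusted p = 0.276), with -0.27 inside set 1 and -0.31 inside set 2. Hormad1, its close relative, differed by 0.05 (95% interval -0.20 to 0.29) with values of 0.06 and -0.07 inside the sets.

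The 3 meiotic cohesin subunits among the 37 genes all had negative differences. Rad21l, on the list of other meiotic genes, was not matched by symbol. Smc1b stood at 10.15, 10.20 and 10.22 on knockout arrays, against 10.49, 10.35 and 10.35 on wild-type arrays, without overlap (difference -0.21, SE 0.09, limma adjusted p = 0.314). Stag3 stood at 10.80, 10.49 and 10.43 on knockout arrays, against 11.01, 10.97 and 10.66 on wild-type arrays. Here knockout 1 lay above wild type 3. The Stag3 difference was -0.31 (SE 0.14, limma adjusted p = 0.335), but set 2 was lower than set 1 by 0.40, and inside the sets the differences were -0.19 and -0.20. Rec8, the kleisin that closes the ring, differed by -0.20 (SE 0.14), with -0.12 inside set 1 and -0.115 inside set 2. It was -0.05 without wild type 1 and -0.03 with the run of title codes as a block.

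Of the other axis genes, Sycp3 was the brightest and lay on the higher side. It stood at 11.77, 11.78 and 11.84 on knockout arrays, against 11.47, 11.76 and 11.81 on wild-type arrays. Only wild type 1 lay well apart from the other 5 arrays (difference 0.12, limma adjusted p = 0.647). Sycp2, the partner of SYCP3, differed by -0.07 with groups that did not overlap: 10.92, 10.92 and 10.94 on knockout arrays, against 10.95, 11.01 and 11.02 on wild-type arrays (limma adjusted p = 0.734). Trip13, the ATPase that strips HORMA-domain proteins from axes, differed by -0.15, -0.13 and -0.15 on its 3 probe sets (limma adjusted p = 0.491, 0.510 and 0.435). The groups overlapped on the brightest only. The dimmest had means of 3.57 in knockout and 3.72 in wild type, a level at which a change could be missed.

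The synaptonemal complex genes differed least in value, with a median of 0.01 over 5 genes. Tex12, of the central element, stood at 9.63, 9.71 and 9.89 on knockout arrays, against 9.65, 9.58 and 9.70 on wild-type arrays (difference 0.10, limma adjusted p = 0.667). Syce2, its partner and the brightest of the group, stood at 12.15, 12.06 and 12.14 on knockout arrays, against 12.01, 12.09 and 12.16 on wild-type arrays (difference 0.03, limma adjusted p = 0.903). Genotypes overlapped for both. Sycp1, the transverse filament that bridges the axes, stood at 10.36, 10.29 and 10.35 on knockout arrays, against 10.28, 10.36 and 10.32 on wild-type arrays (difference 0.01, limma adjusted p = 0.958). Syce1 differed by -0.003 and Syce3 by 0, both of the central element. The 95% intervals of these 5 genes ran between -0.20 and 0.32, so changes within that range could be missed.

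The telomere attachment group had a median difference of -0.16, with 5 of 6 genes below 0. The mean level of its 6 genes ran from 8.70 to 8.73 on knockout arrays, against 8.84 to 8.91 on wild-type arrays. The median was -0.08 inside set 1 and -0.175 inside set 2, beside the same medians of -0.245 and 0.42 for the spermatocyte and Sertoli markers. Majin, the membrane anchor of the complex that tethers telomeres, had the smallest p of all 37 genes. It stood at 7.42, 7.55 and 7.57 on knockout arrays, against 7.90, 7.82 and 7.89 on wild-type arrays, so the groups were apart. The means were 7.51 ± 0.08 in knockout and 7.87 ± 0.04 in wild type (SD, n = 3 each). The difference was -0.36 (SE 0.09, 95% interval -0.56 to -0.16), a 1.28-fold lower level (limma unadjusted p = 0.00315, limma adjusted p = 0.194). By unadjusted p it ranked 728 of the 45037 probe sets. Inside set 1 the difference was -0.44 and inside set 2 it was -0.33.

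The proteins that complete this complex, TERB1 and TERB2, had RNA differences of the same sign. Terb2 stood at 7.31, 7.08 and 7.10 on knockout arrays, against 7.35, 7.32 and 7.56 on wild-type arrays. The groups did not overlap, by a gap of 0.01 between knockout 1 and wild type 2, and the difference was -0.25 (SE 0.11, limma adjusted p = 0.329). Inside set 2 it was -0.47 and inside set 1 it was -0.025. Terb1 differed by -0.16 on its brighter probe set and by -0.21 on the other (limma adjusted p = 0.510 and 0.305), and only on the dimmer one did the groups not overlap.

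Sun1 and Sun2, which span the inner nuclear membrane and pass force from the cytoskeleton, differed in sign. Sun2 stood at 8.77, 8.85 and 8.90 on knockout arrays, against 8.81, 8.57 and 8.70 on wild-type arrays, with overlap at knockout 1 (difference 0.15, limma adjusted p = 0.505). Sun1 differed by -0.16 and -0.14 on its 2 probe sets. The part of somatic cells in the Sun1 and Sun2 values was not tested. Spdya, an activator of CDK2 at telomeres, stood at 10.41, 10.53 and 10.44 on knockout arrays, against 10.46, 10.60 and 10.68 on wild-type arrays (difference -0.12, limma adjusted p = 0.580). Knockout 2 lay above wild type 1.

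Meioc and Ythdc2, RNA regulators that work as a pair when germ cells turn from mitosis to meiosis, differed by 0.02 and 0.10. Meioc stood at 9.54, 9.59 and 9.55 on knockout arrays, against 9.18, 9.67 and 9.76 on wild-type arrays (limma adjusted p = 0.959). The 3 knockout arrays lay inside the wild-type range, which wild type 1 widened. Ythdc2 stood at 7.68, 7.85 and 7.94 on knockout arrays, against 7.60, 7.78 and 7.78 on wild-type arrays, with overlap (limma adjusted p = 0.675).

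**Figure D3:**
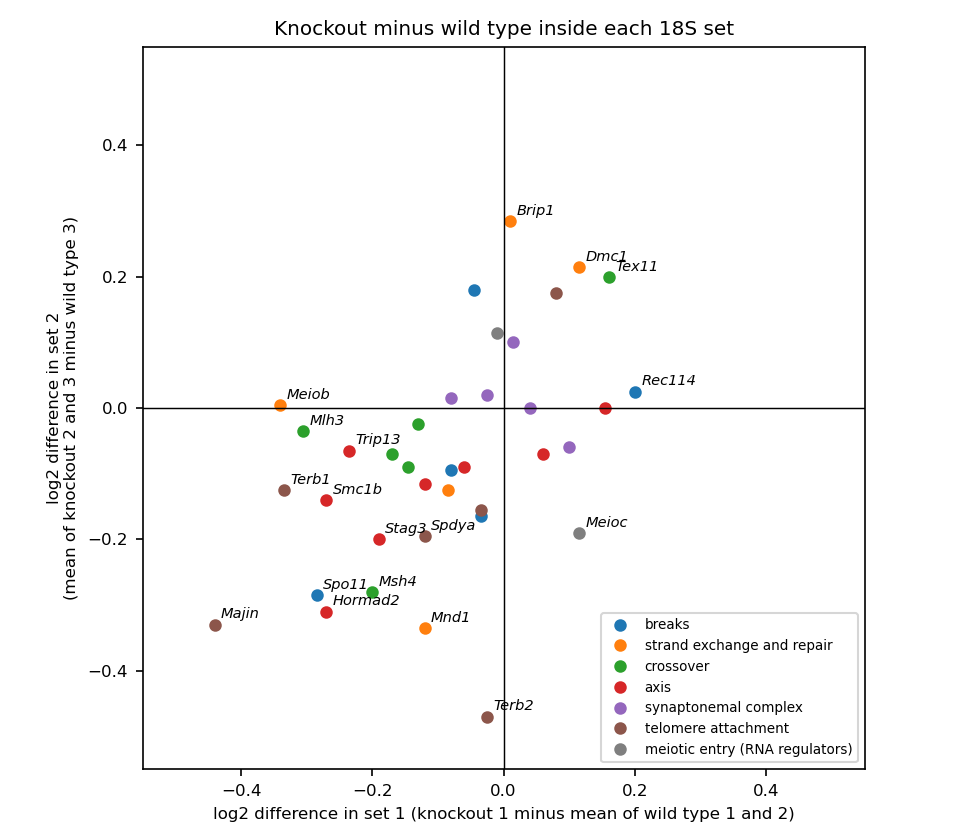
Log2 difference (knockout minus wild type) of each of the 37 genes inside 18S set 1 (x axis, knockout 1 minus the mean of wild type 1 and 2) and inside 18S set 2 (y axis, the mean of knockout 2 and 3 minus wild type 3), coloured by role, with genes past 0.18 on either axis named. In the lower left, 21 genes are below 0 in both sets, with Majin at -0.44 and -0.33, and Terb2 is near 0 in set 1.

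Across the 2 sets, 21 of the 37 genes were lower in knockout in both and 6 were higher in both, whereas 34.8% of all 18193 genes were lower in both and 27.8% higher in both. The 6 were Rec114, Dmc1, Brip1, Tex11, Tex12 and Sun2. Those lower in both included 5 of 6 crossover genes, 6 of 8 axis genes and 5 of 6 telomere attachment genes. Of the 5 synaptonemal complex genes, 4 were split or at 0 in a set. With the sets as a block, limma called 0 of 37 at an adjusted p under 0.05, and at an unadjusted p under 0.05 it gave 5 lower (background 10.2%) and 0 higher (background 8.63%). These 5 were Spo11, Hormad2, Stag3, Majin and Terb1, so Stag3 and Terb1 stood in place of Smc1b and Terb2. 

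The array held other probe sets for 10 of the 37 genes, 12 in all. Of these, 10 had the sign of the brightest probe set and 2, of Msh5 and Sun2, the opposite sign. At an unadjusted p under 0.05 in limma there were 4: 2 of Cntd1 and 1 of Terb1, lower, and 1 of Rec114, higher. Over 1 probe set per gene the background was 8.72% lower and 8.58% higher.

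Other meiotic genes, not all of them in recombination or the axis and none among the 37, were matched for 32 of 52 names. Their median difference was -0.01, with 18 below 0, 13 above and 1, Exo1, at 0. At an adjusted p under 0.05 limma called 0 of the 32. At an unadjusted p under 0.05, 4 were lower (background 8.72%) and 2 higher (background 8.58%). Lower were the piRNA genes Piwil2 (-0.30) and Tdrd9 (-0.25), the damage adaptor Mdc1 (-0.27) and Mybl1 (-0.26), which encodes A-MYB. Mybl1 is also counted among the spermatocyte markers, and Stra8 of this list among the spermatogonial markers. Higher were X-linked Taf7l (0.27) and Smc1a (0.46), a cohesin subunit whose meiotic counterpart is SMC1B. Smc1a stood at 6.90, 7.16 and 7.30 on knockout arrays, against 6.73, 6.60 and 6.65 on wild-type arrays (limma adjusted p = 0.198). It thus lay on the other side of 0 from Smc1b, though neither passed the threshold and the difference between the pair was not tested. The cohesin genes Smc3 and Rad21 of the same list differed by 0.06 and -0.01.

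Other cell type lists were measured beside the meiotic genes. Leydig cell markers had a median of 0.28 (5 of 5 above 0), at 9.00 to 9.50 on knockout arrays, against 8.80 to 9.12 on wild-type arrays. Their median turned to -0.085 inside set 1, with 0.345 inside set 2 and 0.075 with the sets as a block. Leukocyte markers had a median of 0.35 (7 of 7 above 0), at 5.69 to 6.51 on knockout arrays, against 5.79 to 6 on wild-type arrays. It too turned, to -0.135 inside set 1, with 0.35 inside set 2 and 0.13 with the sets as a block. Spermatogonial markers had a median of 0.09 (5 of 9 above 0), at 7.29 to 7.57 on knockout arrays, against 7.36 to 7.47 on wild-type arrays, and their median was -0.13 inside set 1 and 0.055 inside set 2. Round spermatid markers had a median of 0.02 (5 of 8 above 0), at 11.40 to 11.52 on knockout arrays, against 11.37 to 11.50 on wild-type arrays, and their median was -0.01 inside each set. Elongating spermatid markers had a median of -0.005 (3 of 8 above 0), at 13.09 to 13.16 on knockout arrays, against 13.15 on each wild-type array. The bright spermatid markers go with the labelled tissue in both genotypes.

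**Figure D4:**
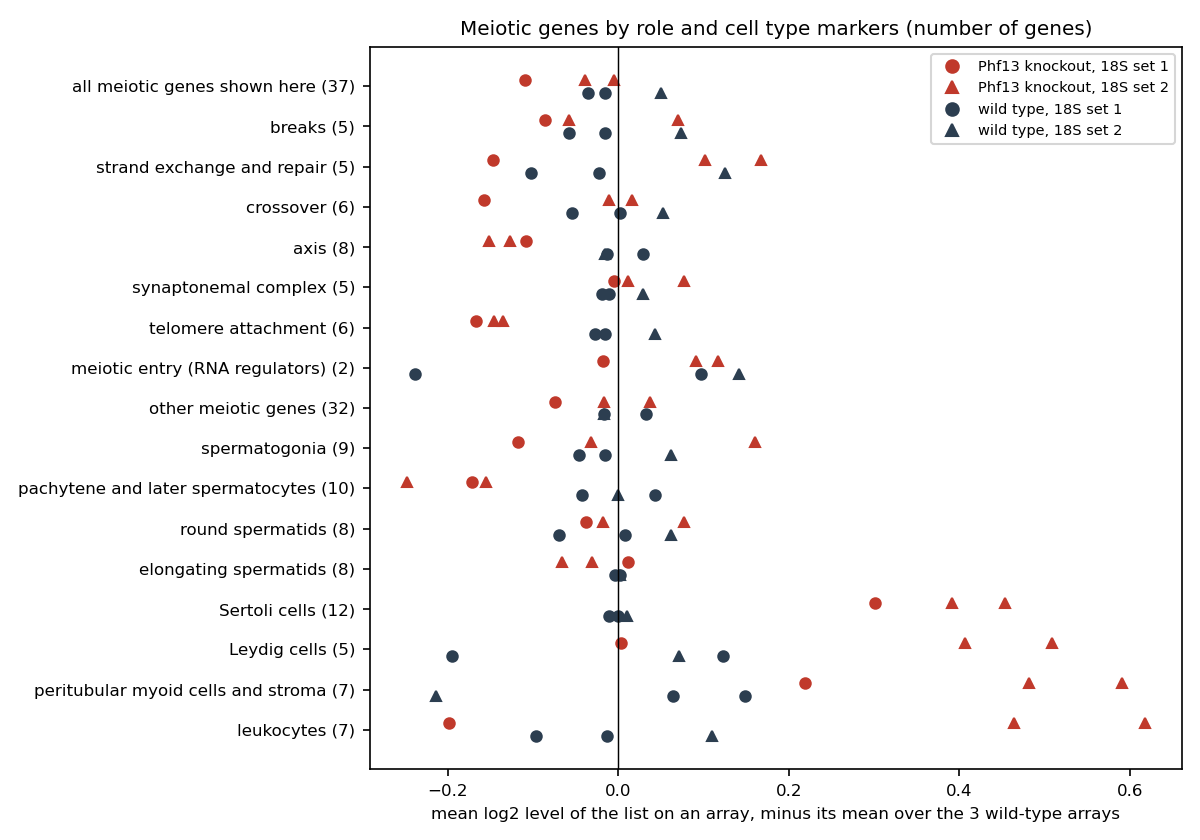
Mean log2 level of each gene list on each array, minus its mean over the 3 wild-type arrays (x axis), for the meiotic genes by role and for cell type markers (down the page, number of genes in brackets), with red Phf13 knockout points above dark wild-type points, circles for 18S set 1 and triangles for 18S set 2. Knockout and wild-type points do not overlap for the axis, telomere attachment and spermatocyte lists, where knockout is lower, or for the Sertoli and the myoid and stroma lists, where knockout is higher.

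The 3 arrays per genotype limit the precision. In simulated data the fit recovered 24% of planted differences of 0.5, so most changes of that size would go uncalled. Differences of up to 3 were planted in the same data, which eases the adjusted threshold. The share recovered on the real arrays may therefore be lower. The standard errors of the 37 differences ran from 0.08 to 0.17.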

How the data were processed

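Total RNA of whole testis was measured on 3 Phf13 knockout and 3 wild-type Affymetrix arrays, grouped by sample title. The authors deposited log2 values for each probe set, and the submitters' processing notes name Affymetrix Expression Console 1.4.1. That the scale is log2 follows from their range. Their summarization, normalization and genome build are not stated in what was used here.

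Of 45101 probe sets, 64 controls were left out and 45037 were fitted without a filter in R 4.3.3 with limma 3.58.1. The settings were lmFit on genotype, eBayes, two-sided, Benjamini-Hochberg over all probe sets and threshold 0.05. The fit was tested on simulated data with 50 planted differences of each size. It recovered 24% of those of 0.5 log2, 68% of those of 1, 94% of those of 2 and 100% of those of 3. It called 8 of 44837 unchanged probe sets. Differences as small as those of the meiotic genes, at most 0.36 in size, were not simulated. GEO's annotation of the array gave 1 symbol for 34945 probe sets, several for 932 and none for 9160. Each gene was represented by its brightest probe set on average. Members, roles, lists and the 18S sets were chosen with earlier results of these data known. Within each role the 3 genes with the smallest p and the brightest gene are given array by array. Sycp2, Smc1a, the other Cntd1 and Rec114 probe sets and the promoter motifs were added once values had been seen. Alternatives were blocks for replicate number, title code run and 18S set, a level filter, quantile normalization, median centring, array weights, trend and robust moderation, leaving out each array, averaged probe sets, and a threshold of 0.1. No array repeated another (correlations from 0.989 to 0.998).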

Additional observations from a re-analysis of the deposited data

How the results depend on the processing

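Of the 37 genes, 22 kept their sign in every alternative run, among them Spo11, Majin, Hormad2, Smc1b, Stag3, Terb2, Dmc1 and Tex11, 13 changed sign in at least 1, Sycp3 was at 0 inside 18S set 2, and Syce3, at 0, ran from -0.035 to 0.04. Spo11 and Majin had an unadjusted p under 0.05 in each of 15 alternative fits. Limma called 0 of the 37 higher in any fit, and lower only Majin and Stag3 with array weights, a count of 2; that fit called 1654 probe sets higher and 1532 lower, with 4 of the 37 higher at an unadjusted p under 0.05. Over all probe sets, 25 higher and 20 lower became 12 and 4 with the title code run as a block, 66 and 44 with trend and robust moderation, and 48 and 52 at a threshold of 0.1, and the lower count became 42 among probe sets above the median level. Of the 37 at an unadjusted p under 0.05, 3 were lower with the title code run as a block, and quantile normalization gave 3 lower and 2 higher. There were 6 lower with trend and robust moderation and 6 with array weights. With probe sets averaged per gene 1 was higher, Rec114, and Spo11, Cntd1, Hormad2, Smc1b, Stag3, Majin and Terb2 were lower. Leaving out 1 array gave 8 to 178 probe sets higher and 4 to 998 lower, 2 to 5 of the 37 lower and 0 to 4 higher at an unadjusted p under 0.05, and a median difference of the 37 from -0.10 to -0.005; the extremes of 178 and 998 came without wild type 3, and 140 higher passed without knockout 1. With the replicate number as a block, 6 probe sets were lower, and 4 of the 37 were lower and 2 higher at an unadjusted p under 0.05. The deviations of same-numbered arrays correlated at 0.26, 0.07 and 0.12, and knockout 2 correlated best with wild type 3 (0.13), so the numbers were not taken as pairs. The causes of these shifts were not tested. Mei4 and Prdm9, below the median level, were not tested in the filtered fit.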
